A study of Homo sapiens with 8 samples.

Results

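F-box adaptor genes encode the proteins that choose the substrates of SCF ubiquitin ligases, and their transcripts were compared between HCT116 p53+/+ cells given MANIO and the same cells given DMSO. The members were the rows of the count table whose gene symbol is FBXL, FBXO or FBXW followed by digits only, which gave 62 of 58302 genes: 17 FBXL, 36 FBXO and 9 FBXW genes. The MANIO group comprised 4 cultures treated with 1 µM MANIO (a code name; no structure is used here), and the DMSO group 4 cultures that received the solvent, each for 24 hours. HCT116 p53+/+ is an established human colon cancer line, so all 8 cultures share 1 genotype, and 1 dose and 1 time were studied. The labels call the 4 cultures of a group biological replicates, and every p-value below rests on the spread between them. As in all bulk RNA data, a change in the share of cells that express a gene cannot be told apart from a change in its RNA per cell.

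An SCF ligase is built on the scaffold CUL1, whose one end carries the RING protein RBX1 and whose other end carries the linker SKP1. SKP1 holds an F-box protein through the F-box motif, and a second part of that protein binds the substrate, usually after the substrate has been phosphorylated. The second part consists of leucine-rich repeats in the FBXL class and of WD40 repeats in the FBXW class, and the FBXO class collects all other arrangements. In the intestine and its tumours the family is best known through FBXW7, a tumour suppressor that removes cyclin E, MYC, JUN and NOTCH proteins.

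Total counts were 29.3 to 32.5 M in the MANIO libraries and 27.9 to 31.8 M in the DMSO libraries, of which the members held 0.204 to 0.208% and 0.180 to 0.195%. These totals exceed the sequencing depth given in the labels, about 25 M raw reads for each sample, and no reason is given, so what 1 count stands for is uncertain. The cell cycle inhibitor gene CDKN1A averaged 1402 ± 97.1 CPM in MANIO and 260.4 ± 24.0 CPM in DMSO (SD, n = 4 each). Of 8 epithelial and intestinal markers 6 were tested, while VIL1 and CDX1 were near 0 in both groups. The 8 markers summed to 4135 to 4636 CPM in MANIO and 3350 to 3622 CPM in DMSO, and KRT8 (0.38), KRT18 (0.37), KRT19 (0.44), CDH1 (0.32) and CDX2 (0.22) were called higher on the log2 scale, while EPCAM was not called. Of 10 markers of other cell types 3 were tested, and the summed level of the 10 was 42.6 to 50.9 CPM in MANIO and 24.3 to 29.2 CPM in DMSO, nearly all of it COL1A1. COL1A1 and PDGFRB were called higher (log2 fold changes 0.88 and 1.06). Both shifts move with the treatment, and their part in the results below was not tested. PTPRC, CD3E and CDH5 had at most 5 counts over all libraries. MANIO library 4 and DMSO library 1 stood apart within their groups, with a median of -0.11 each on the log2 scale against the group mean in the GC-richest of 3 equal classes of tested genes. Mitochondrial genes held 6.70 to 7.62% of counts in MANIO, against 7.48% in DMSO library 1 and 4.82 to 5.21% in the other DMSO libraries, and the part of this in the results was not tested.

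Of the 62 members, 54 passed the filter on low counts and were tested. The calls were made with edgeR's quasi-likelihood test at a Benjamini-Hochberg adjusted p under 0.05 over all 15712 tested genes, as everywhere below. In MANIO 10 members were higher and 12 were lower, and 32 were not called. Across all tested genes 54.6% were called, 27.8% higher and 26.8% lower, against 40.7% of the tested members, 18.5% higher and 22.2% lower. The median log2 fold change was 0.004 over the tested members and 0.004 over all tested genes. At least 1.5-fold differences were found for 3 members that were higher and 5 that were lower, where 11.1% and 6.85% of all tested genes reached that size. At least 2-fold differences were found for 0 members that were higher and 2 that were lower (FBXO15 and FBXL17), against 4.53% and 2.37% of all tested genes. Tested against a 1.2-fold limit, 5 members were higher and 5 lower, where 26.3% of all tested genes passed, 14.7% higher and 11.6% lower. In all, 20 members had groups that did not overlap, 10 in each direction, against 48.3% of tested genes, 24.7% higher and 23.7% lower. By class, 3 FBXL genes were higher and 3 lower of 15 tested, 5 FBXO genes were higher and 9 lower of 32, and 2 FBXW genes were higher and 0 lower of 7.

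**Figure D1:**
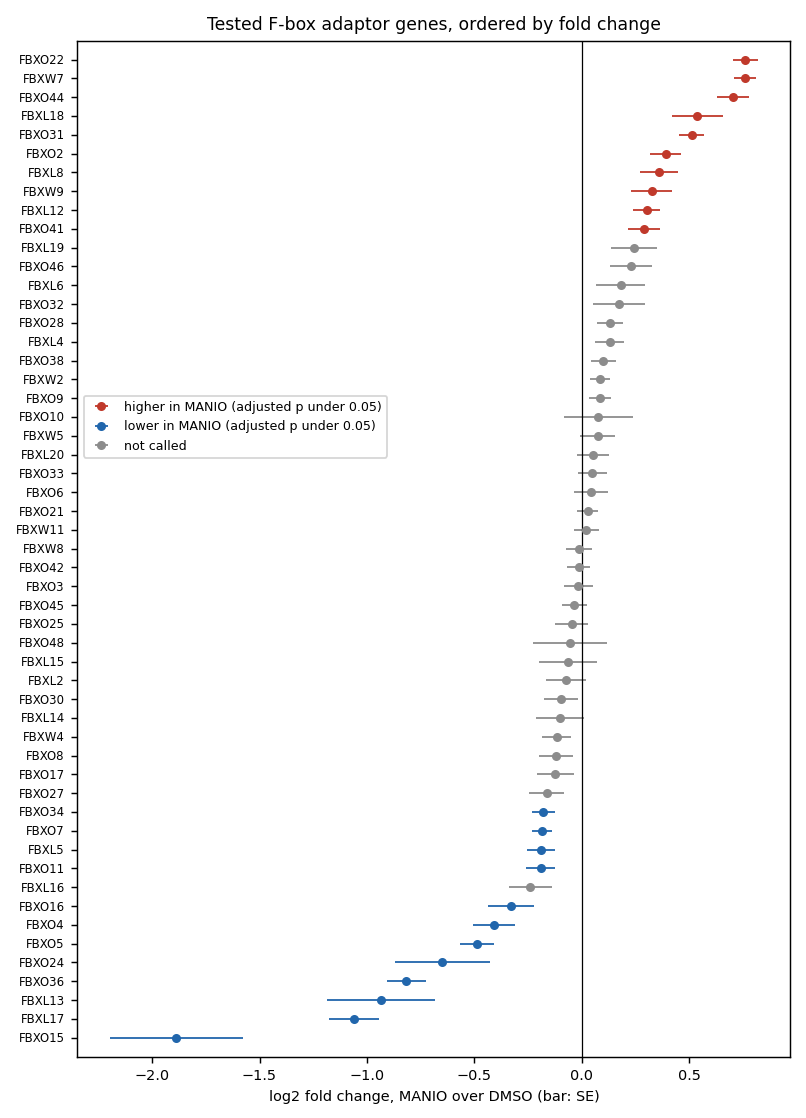
Log2 fold change of MANIO over DMSO for the tested F-box adaptor genes except 1 without a call, ordered by size, with the standard error as a bar and 4 libraries per group. The 10 members called higher lie between 0.29 and 0.76, and the 12 called lower between -1.89 and -0.18.

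The 2 members with the smallest p were both higher in MANIO. FBXW7, the substrate receptor for cyclin E, MYC, JUN and NOTCH, had 51.1, 51.6, 50.9 and 53.4 CPM in the MANIO libraries, against 30.6, 31.2, 30.8 and 29.6 CPM in the DMSO libraries. Its groups were far apart and varied little, and the log2 fold change was 0.76 (SE 0.0530; edgeR adjusted p = 2.1e-08). FBXO22, known as a receptor for the demethylase KDM4A, had 104, 113, 116 and 123 CPM in MANIO, against 69.9, 65.0, 67.9 and 65.6 CPM in DMSO. Every MANIO library lay well above every DMSO library, and the log2 fold change was 0.76 (SE 0.0585; edgeR adjusted p = 5.9e-08). FBXW7 (ENSG00000109670) lies on the minus strand of chromosome 4 at 152320544 to 152536063 and FBXO22 (ENSG00000167196) on the plus strand of chromosome 15 at 75903859 to 75942510 (GRCh38), and exons of NRG4 cover 16.2% of the exonic bases of FBXO22. FBXW7 has several transcript starts, and the counts here cover the whole gene and do not separate them.

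**Figure D2:**
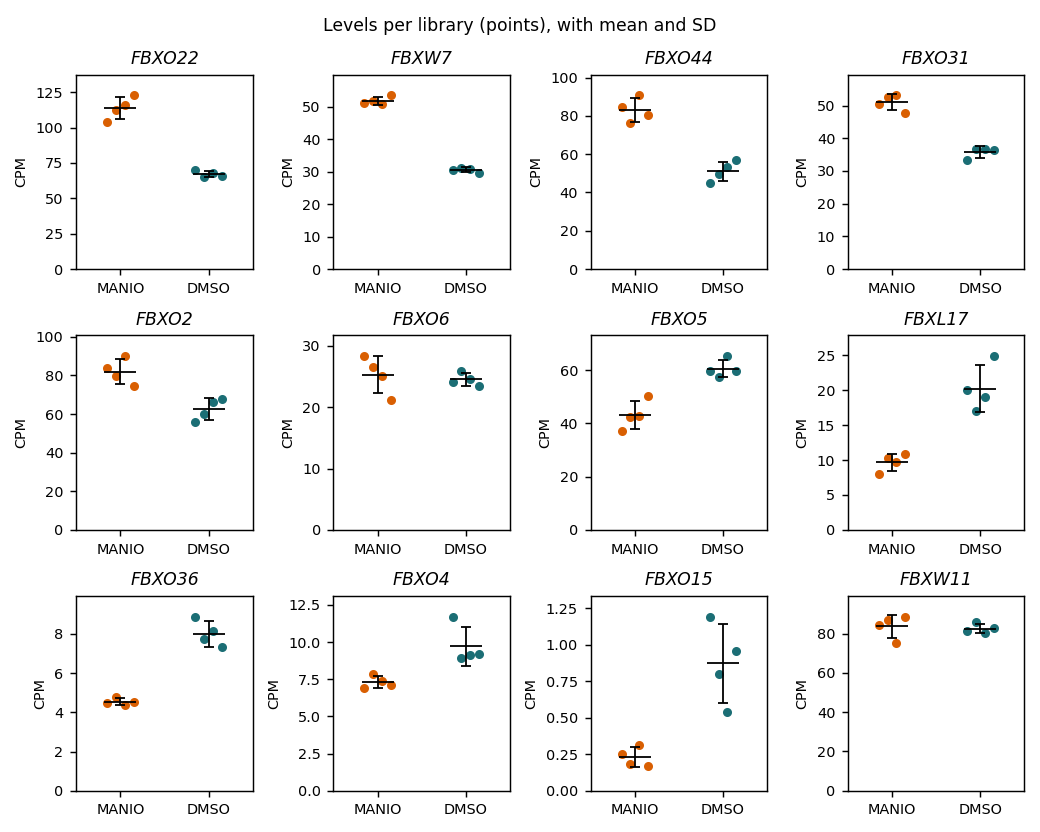
Level in counts per 1000000 (CPM) of 12 F-box adaptor genes in each library, MANIO on the left and DMSO on the right, with the mean and SD (n = 4 each). FBXW7 and FBXO22 separate the groups widely upward and FBXL17, FBXO36 and FBXO15 downward, while FBXO6 and FBXW11 overlap.

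FBXO44 and FBXO2, whose starts overlap on chromosome 1, were both higher in MANIO. Both belong to the subfamily of FBXO6, in which FBXO2 and FBXO6 bind N-glycosylated proteins that have been returned from the endoplasmic reticulum for degradation. FBXO44 had 84.9, 76.2, 90.7 and 80.4 CPM in MANIO, against 44.9, 49.4, 53.04 and 56.8 CPM in DMSO (log2 fold change 0.70, SE 0.0741; edgeR adjusted p = 1.6e-06). FBXO2 had 84.0, 79.5, 89.9 and 74.5 CPM in MANIO, against 55.7, 60.1, 66.4 and 68.0 CPM in DMSO (log2 fold change 0.39, SE 0.0727; edgeR adjusted p = 3.4e-04). Neither pair of groups overlapped. FBXO6, whose RefSeq start lies 9.79 kb farther along the plus strand than that of FBXO44, had 28.3, 26.5, 25.1 and 21.2 CPM in MANIO, against 24.0, 26.0, 24.6 and 23.5 CPM in DMSO. Its groups overlapped and it was not called (0.04; edgeR adjusted p = 0.677).

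The RefSeq starts of FBXO44 (plus strand) and FBXO2 (minus strand) face across each other, so that the first 23 transcribed bases of each gene are the same genomic bases, chr1:11654407-11654429 on GRCh38.p14. They are shown because the library kit does not mark the strand, and reads from this stretch cannot be assigned to either gene by their sequence. Exons of the other gene cover 7.57% of the exonic bases of FBXO44 and 7.82% of those of FBXO2. The stretch reads as follows on the plus strand, from the FBXO44 start at the left to the FBXO2 start at the right.
FBXO44 and FBXO2 shared start: gagtcccggcgctgtccgcgtct

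The other members that were higher had log2 fold changes of 0.29 to 0.54. FBXO31, which directs cyclin D1 to degradation after DNA damage, had 50.5, 52.7, 53.1 and 47.7 CPM in MANIO and 33.3, 36.6, 36.8 and 36.4 CPM in DMSO (log2 fold change 0.51, SE 0.0593; edgeR adjusted p = 4.1e-06), and its groups did not overlap. FBXL18 had 16.2, 16.7, 15.8 and 12.2 CPM in MANIO and 7.998, 11.9, 11.1 and 10.9 CPM in DMSO (0.54, SE 0.120; edgeR adjusted p = 0.00166). Its groups were separated by a narrow gap, with MANIO library 4 and DMSO library 1 the lowest of their groups. FBXL8 (0.36), FBXW9 (0.32), FBXL12 (0.30) and FBXO41 (0.29), a gene studied mainly in neurons, completed the 10. Their edgeR adjusted p lay between 8.5e-04 and 0.00965, and the groups of FBXW9 and FBXO41 overlapped. Exons of other genes cover 30.9% of the exonic bases of FBXL8, 26.4% of those of FBXW9 and 16.1% of those of FBXO31, so reads of a neighbour may be counted there.

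The summed level of the 62 members was 2037 ± 15.2 CPM in MANIO and 1911 ± 23.0 CPM in DMSO (SD, n = 4 each). FBXO22, FBXO44, FBXW7, FBXO2 and FBXO31, the 5 members with the largest gains in CPM, added 135 CPM. The other members together had 8.37 CPM less in MANIO. Because the 5 were picked by these same gains, the choice itself lowers the remainder. The summed level weighs long transcripts more than short ones and is given as a description, without a test.

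Among the members that were lower, the largest differences in well-detected genes were in FBXL17 and FBXO36. FBXL17, an adaptor for the quality control of BTB domain dimers, had 8.02, 10.3, 9.68 and 10.8 CPM in MANIO, against 20.1, 17.0, 19.0 and 24.9 CPM in DMSO (log2 fold change -1.06, SE 0.116; edgeR adjusted p = 3.7e-06). FBXO36 had 4.50, 4.79, 4.37 and 4.51 CPM in MANIO, against 8.85, 7.72, 8.15 and 7.32 CPM in DMSO (-0.82, SE 0.0906; edgeR adjusted p = 2.6e-06). In both genes all MANIO libraries lay at or below 10.8 and 4.79 CPM, under the lowest DMSO library. FBXO15, known in mouse as a marker of pluripotent stem cells, was near the limit of detection with 0.253, 0.183, 0.316 and 0.168 CPM in MANIO and 1.19, 0.804, 0.541 and 0.959 CPM in DMSO (-1.89, SE 0.310; edgeR adjusted p = 1.1e-04). FBXL13 also had few counts, at 0.477 ± 0.00730 CPM in MANIO and 0.924 ± 0.298 CPM in DMSO (SD, n = 4 each; -0.93, edgeR adjusted p = 0.00563). For both, the groups did not overlap, but the values rest on 128 and 165 counts over the 8 libraries. FBXL13 had 15, 16, 15 and 14 counts in the MANIO libraries, so its SD there is smaller than counting error and understates the uncertainty.

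FBXO5, also called EMI1, inhibits another ligase, the anaphase-promoting complex, and lets cyclin A accumulate before mitosis. It had 37.1, 42.6, 42.9 and 50.2 CPM in MANIO, against 59.7, 57.4, 65.2 and 59.7 CPM in DMSO, with no overlap between the groups (log2 fold change -0.49, SE 0.0785; edgeR adjusted p = 9.5e-05). FBXO43, which encodes the related inhibitor EMI2 of meiotic cells, had 4 to 16 counts per library and was not tested. Upstream of the downstream RefSeq start of FBXO5 lies a stretch with motifs common in promoters of cell cycle genes, and it is shown because FBXO5 is a cell cycle gene that was lower in MANIO. The stretch covers chr6:152983063-152983186 on the minus strand of GRCh38.p14, 145 to 22 bases before that start, and overlaps no annotated exon. Capitals mark matches on either strand to CCAAT boxes, to the motif TTTGAA and to the motif TTTAAA, and the leftmost pair of CCAAT matches overlap each other. The 250 bases before the other, upstream RefSeq start of FBXO5 held no match to these motifs. The printed stretch lies inside the annotated span of the gene, 152970519 to 152983579. Which start was used is not shown by the counts, and a part of these motifs in the lower level was not tested.
FBXO5 upstream stretch: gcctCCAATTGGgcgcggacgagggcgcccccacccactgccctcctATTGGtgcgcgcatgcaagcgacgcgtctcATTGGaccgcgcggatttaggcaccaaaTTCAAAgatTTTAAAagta

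CCAAT occurs in 34.6% of all 35116 RefSeq promoter windows of 300 bases, TTTGAA in 15.2% and TTTAAA in 12.2%, while 4 or more CCAAT matches, as in FBXO5, occur in 0.991%. RefSeq windows were found for 48 of the 62 members and for 17 of the 22 called. CCAAT was present for 5 of 11 genes that were lower and 1 of 6 that were higher, and for 39.7% of all genes with a window. TTTCCCGC and TTTGGCGC, forms of the E2F site, occur in 1.63% and 0.652% of all windows and were in no window of a called member. At such low shares, their absence from so few windows says little about the called members. These are matches of letters within the windows searched and do not show binding.

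FBXO4, a second receptor described for cyclin D1, had 6.94, 7.83, 7.405 and 7.10 CPM in MANIO and 11.7, 8.91, 9.13 and 9.20 CPM in DMSO (-0.41, SE 0.0969; edgeR adjusted p = 0.00231). The groups did not overlap, and DMSO library 1 was the highest. FBXO7, which is mutated in a form of early parkinsonism, had 84.4, 85.2, 85.9 and 86.8 CPM in MANIO and 95.9, 97.6, 96.2 and 99.7 CPM in DMSO, a separation of all libraries at a log2 fold change of -0.19 (SE 0.0470; edgeR adjusted p = 0.00360). FBXO34 was similar, at 33.7 ± 0.570 CPM in MANIO and 38.2 ± 1.33 CPM in DMSO (SD, n = 4 each; -0.18, edgeR adjusted p = 0.0111). These 3 calls held in all 8 fits with 1 library left out, but all 3 were lost against the 1.2-fold limit.

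Calls of 4 lower members depended on single libraries. FBXL5, the iron sensor that removes the iron regulatory protein IREB2, was lower by a small margin (-0.19 on the log2 scale; edgeR adjusted p = 0.0191) and lost its call without MANIO library 3 (adjusted p = 0.0640) and without DMSO library 1 (adjusted p = 0.0619). FBXO11, a receptor for BCL6 whose exons are covered to 26.9% by other genes, had a difference of -0.19 (edgeR adjusted p = 0.0238). It lost the call without MANIO library 1, 2 or 3 and without DMSO library 1 or 4, at edgeR adjusted p of 0.0660, 0.0574, 0.0765, 0.0678 and 0.0534. FBXO16 (-0.33), with 51.4% of its exonic bases covered by other genes, lost it without MANIO library 2 (edgeR adjusted p = 0.0625) and without DMSO library 1 (0.0524). FBXO24 (-0.65), at 0.823 ± 0.175 CPM in MANIO and 1.28 ± 0.329 CPM in DMSO (SD, n = 4 each), lost it without MANIO library 2 (edgeR adjusted p = 0.0765) and without DMSO library 3 (0.103).

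Conversely, 7 members that were not called passed when 1 library was left out. FBXL16 (-0.24; edgeR adjusted p = 0.0552) had an edgeR adjusted p of 0.0209 without MANIO library 3 and 0.0203 without DMSO library 1. FBXO46 (0.23; edgeR adjusted p = 0.0606) had one of 0.0353 without MANIO library 4 and 0.0436 without DMSO library 4, FBXL19 (0.24) one of 0.0320 without DMSO library 3, and FBXL6 (0.18) one of 0.0473 without MANIO library 4. FBXO27 (-0.16) passed without MANIO library 3 (edgeR adjusted p = 0.0241) and DMSO library 4 (0.0492), FBXO28 (0.13) without MANIO library 1 (0.0479) and 3 (0.0499), and FBXO30 (-0.10) without MANIO library 4 (0.0499). With neither MANIO library 4 nor DMSO library 1, an alternative chosen after the data had been seen, all 22 calls were kept and 4 were added: FBXL16, FBXL19, FBXL6 and FBXO30. The count of FBXL genes called higher was then 5 in place of 3.

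Well-known receptors were among the members without a call. FBXW11, which with BTRC forms the beta-TrCP pair that recognises beta-catenin and I-kappa-B, had 84.3, 86.9, 75.3 and 88.3 CPM in MANIO and 81.4, 85.7, 80.3 and 82.7 CPM in DMSO (0.02; edgeR adjusted p = 0.784), and its groups overlapped. FBXO32, or atrogin-1, known for muscle atrophy, had a log2 fold change of 0.17 at 7.13 ± 1.21 CPM in MANIO and 6.31 ± 0.694 CPM in DMSO (SD, n = 4 each; edgeR adjusted p = 0.241). FBXO38, a receptor for PD-1 in T cells, had one of 0.10 and FBXL2 one of -0.07. FBXO9 and FBXW2 were not called although all their MANIO libraries lay above all their DMSO libraries, at log2 fold changes of 0.08 and 0.09. The 32 members without a call lay between -0.24 and 0.24.

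The 8 members that did not pass the filter were FBXL7, FBXO39, FBXO40 and FBXO47, with no count in any library, and FBXL22, FBXO43, FBXW10 and FBXW12, with 44, 70, 14 and 7 counts over the 8 libraries. A count of 0 allows a level of up to 0.0923 to 0.107 CPM per library, taken as 3 counts and covering counting error only.

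Per kilobase of exon, the highest levels were those of FBXW5, at 24.8 ± 2.67 CPM per kb in MANIO and 23.6 ± 2.21 in DMSO (SD, n = 4 each). In DMSO FBXO2 (18.3 ± 1.68), FBXL6 (16.9 ± 2.53), FBXO5 (15.8 ± 0.860) and FBXW11 (14.8 ± 0.418 CPM per kb) followed, and each lay within the summed SDs of its neighbour in this order except FBXO2 below FBXW5. Exons of other genes cover 37.0% of the exonic bases of FBXL6, so reads of a neighbour may be counted there. The length is that of all annotated exons of a gene merged, whether or not they were used here, which limits the ranking. In MANIO FBXO2 reached 24.0 ± 1.92 and FBXO44 23.5 ± 1.75 CPM per kb, both within the SD of FBXW5, while FBXO5 fell to 11.3 ± 1.40 CPM per kb. FBXO5 thereby ranked 9 of 54 in MANIO, against 4 in DMSO, and FBXO44 ranked 3, against 6.

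Related members were compared by the difference between their log2 fold changes. Of 10 pairs of related genes 7 had both genes tested, and each was judged by an exact two-sided permutation test over the 70 assignments of the libraries. FBXO44 exceeded FBXO6 by 0.67 on the log2 scale, FBXO2 exceeded FBXO6 by 0.36, and FBXW11 exceeded BTRC by 0.28. Each of these 3 had an exact permutation p of 0.0286, the smallest that 4 against 4 allows. After Benjamini-Hochberg adjustment over the 7 pairs it was 0.0667, so that 0 pairs passed at an adjusted p under 0.05 and 3 at an unadjusted one. Most of the 7 pairs would have had to reach the smallest p for any to pass after adjustment. The count of 0 therefore does not show that related genes moved alike. For FBXO10 and FBXO11 the difference was 0.27 (exact permutation p = 0.200), for FBXO25 and FBXO32 -0.21 (0.143), for FBXL2 and FBXL20 -0.13 (0.286), and for FBXO17 and FBXO27 0.04 (0.743).

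Gene span and the GC content of the transcripts were set beside the calls. Among the 3 tested members spanning over 150 kb, FBXL17 (523 kb) and FBXL13 (262 kb) were lower and FBXW7 (216 kb) was higher, and in all tested genes of that span 53.9% were lower and 15.6% higher. Of 18 members spanning 50 to 150 kb, 6 were lower and 2 higher, where 29.3% and 26.2% of all tested genes were. Of 33 spanning under 50 kb, 4 were lower and 7 higher, where 22.1% and 30.0% were. By GC content of the transcripts, a split chosen after the data had been seen, 8 of 21 members in the GC-richest of 3 equal classes were higher and 1 was lower, where 35.3% and 19.6% of all tested genes were. In the middle class 0 of 12 were higher and 4 lower, where 27.4% and 27.8% were. In the GC-poorest class 2 of 21 were higher, FBXW7 and FBXO22, and 7 lower, where 20.6% and 33.1% were. The part of span and GC content in single calls was not tested.

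**Figure D3:**
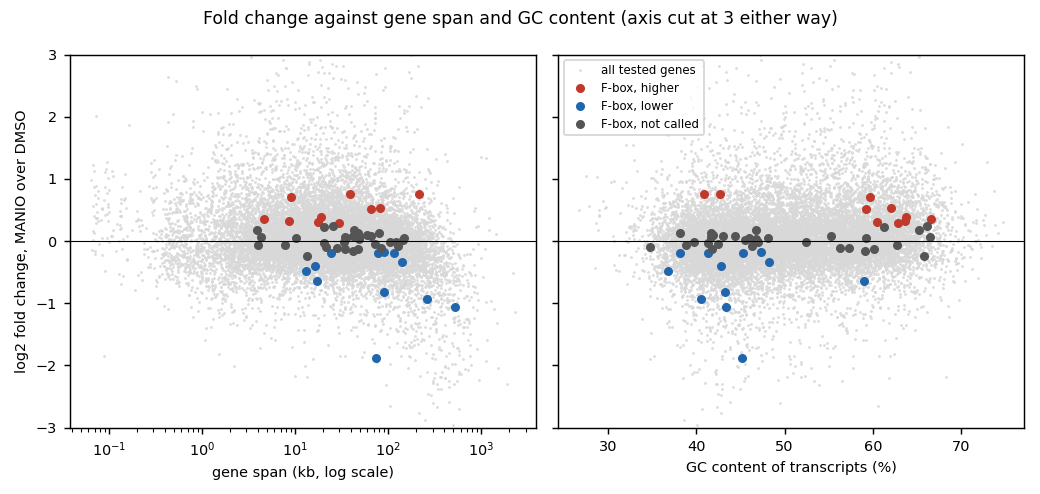
Log2 fold change of MANIO over DMSO against gene span (log axis, kb) and against the GC content of the transcripts (%). All tested genes are in light grey, and the 54 tested members are in colour where called and in dark grey otherwise. The vertical axis ends at 3 in both directions, and all tested members lie inside it, with FBXL17 and FBXL13 low at the long end and FBXW7 (216 kb) above 0 there.

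Other genes of the SCF pathway were taken from 6 lists, and their counts stand beside the 27.8% higher and 26.8% lower of all tested genes. The list named SCF core held CUL1, RBX1 and SKP1, and also CKS1B and GLMN, which are not among the parts of the ligase described above. Of these 5 genes 3 were lower and 0 higher. RBX1 had 45.2 ± 4.04 CPM in MANIO and 63.6 ± 10.1 CPM in DMSO (SD, n = 4 each; log2 fold change -0.49, edgeR adjusted p = 9.4e-04), CKS1B, the cofactor of SKP2, had a log2 fold change of -0.34 and CUL1 one of -0.22. SKP1 was not called (-0.07; edgeR adjusted p = 0.407). Among 9 tested F-box genes under other symbols, 4 were higher and 3 lower. SKP2, the receptor for the CDK inhibitor p27, had 45.1 ± 2.78 CPM in MANIO and 56.4 ± 1.58 CPM in DMSO (-0.32; edgeR adjusted p = 2.3e-04). BTRC (-0.26) and CCNF (-0.27), the gene of cyclin F, were also lower, while LMO7 was higher (0.61; edgeR adjusted p = 2.3e-05) along with TSPAN17 (0.18), FBH1 (0.15) and KDM2A (0.14). Without DMSO library 4 the number called higher was 2 in place of 4. CCNF, TSPAN17, FBH1 and KDM2A were named after their values had been seen.

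Cullins are activated by NEDD8 and reset by its removal. Of 11 NEDD8 conjugation genes 3 were higher and 2 lower. The 3 were DCUN1D3 (0.55; edgeR adjusted p = 2.5e-06), DCUN1D2 (0.28) and DCUN1D4 (0.26), which encode proteins that act on cullin neddylation. The count of 2 lower fell to 0 without MANIO library 1 and to 1 without MANIO library 2 or 3 or DMSO library 1 or 2. Of 11 tested genes of NEDD8 removal and adaptor exchange 5 were lower and 0 higher, led by the COP9 signalosome genes COPS7A (-0.57; edgeR adjusted p = 1.1e-06) and COPS3 (-0.31) and by the NEDD8 protease gene SENP8 (-0.40). Of 8 ubiquitin enzyme genes used with SCF 4 were lower, among them USP28 (-0.32), an antagonist of FBXW7, UBE2D3 (-0.24) and UBE2R2 (-0.21), and 1 was higher, ARIH1 (0.16; named after its value had been seen). The call of ARIH1 was lost without MANIO library 1, MANIO library 2 or DMSO library 3, which left 0 higher. The median log2 fold change was -0.22 in the SCF core list, 0.02 in NEDD8 conjugation, -0.14 in NEDD8 removal and -0.12 in the ubiquitin enzymes, beside 0.004 over all tested genes.

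**Figure D4:**
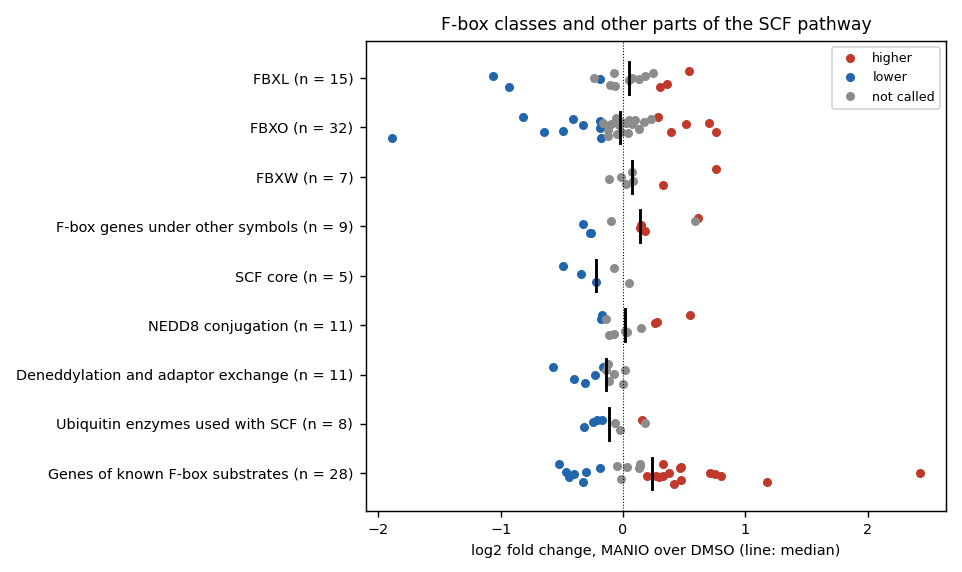
Log2 fold change of MANIO over DMSO for each tested gene of the 3 F-box classes and of 6 lists of the SCF pathway (points, coloured by call), with the median of each as a line. Medians lie between -0.22 (the list named SCF core) and 0.23 (genes of known substrates).

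Genes of proteins known as F-box substrates moved in both directions: 15 of 28 were higher, 7 were lower and 6 were not called, where 27.8% of all tested genes were higher and 26.8% lower. The median log2 fold change was 0.23, beside 0.004 over all tested genes. Transcripts do not show the protein levels that F-box receptors control. The smallest p belonged to CDKN1A (2.43), a substrate of SKP2, followed by JUN (1.17) and CCND1 (0.75).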

How the data were processed

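RNA from 8 HCT116 p53+/+ cultures was sequenced from TruSeq RNA v2 libraries, a kit that does not mark the strand, per the labels' protocols. The authors deposited raw read counts for 58302 Ensembl genes, each row naming a gene. FastQC 1.3, STAR 2.5.3a, HTSeq, DESeq2 and GRCh38 are named in the submitters' processing notes without roles. For the annotation release, strand setting and multi-mapping rule, nothing is stated in those sources.

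Counts were analysed in R 4.3.3 with edgeR 4.0.16: filterByExpr kept 15712 genes, libraries were scaled by TMM, and groups were compared by the quasi-likelihood F test with robust dispersions and Benjamini-Hochberg adjustment over all 15712. Fold changes are MANIO over DMSO, the standard error (SE) comes from the F statistic, and CPM is counts per 1000000 after TMM scaling. The procedure was tested on simulated counts. Chi-square per degree of freedom between libraries of the same group was 3.57 to 23.8, above sampling noise, and each was counted as its own sample.

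Positions, spans, exonic lengths and overlaps come from GENCODE 29 on GRCh38, and promoter windows from RefSeq on GRCh38.p14. Pair differences used log2 CPM with a prior count of 2. Members and lists were chosen with earlier results of these data known. All called members are named, with the largest levels per length, members near the threshold, listed well-known receptors and the 3 smallest p of each pathway list. Alternatives were RLE and upper-quartile scaling, DESeq2 1.42.0, 2 other filters on low counts, a replicate block, a 1.2-fold limit, leaving out each library, other prior counts and leaving out 2 libraries. Values of some genes are not reported here.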

Additional observations from a re-analysis of the deposited data

Results flagged for a closer look

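In a group of 4 libraries a value was picked out when its gap to the nearest other, as a share of the group's range, exceeded Dixon's 95% critical value, which chance does in about 1 in 20 groups. This happened in 10 of 146 groups over 73 genes, and in 5 of 108 groups of the tested members. DMSO library 1 was picked out for FBXO16 (10.5 CPM, the others 8.27 to 8.63), FBXO4 (11.7 CPM, the others 8.91 to 9.20), FBXO31 (33.3 CPM, the others 36.4 to 36.8) and CCND1 (469 CPM, the others 522 to 529). DMSO library 2 was high for FBXO41 (66.4 CPM, the others 56.9 to 57.8) and DMSO library 4 low for LMO7 (6.25 CPM, the others 7.09 to 7.16). MANIO library 4 was low for FBXW9 (11.2 CPM, the others 13.6 to 14.0) and CDKN1A (1257 CPM, the others 1445 to 1462) and high for DCUN1D2 (23.8 CPM, the others 20.7 to 21.2). MANIO library 3 was low for COPS3 (89.2 CPM, the others 96.3 to 97.0).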

How the results depend on the processing

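Over the 54 tested members, 813 of 861 fold changes from alternatives kept their side of the threshold, 25 passed newly and 23 lost their call. The sign changed in 17 of the 861, over 8 members, and in 0 where the member was called. Against a 1.2-fold limit (edgeR's glmTreat) 5 members were higher and 5 lower, as were 2302 and 1830 of all genes, since that test asks for a larger change. The 12 calls lost were those of FBXL5, FBXL8, FBXL12, FBXO2, FBXO4, FBXO7, FBXO11, FBXO16, FBXO24, FBXO34, FBXO41 and FBXW9. With 1 library left out 10 to 12 members were higher and 9 to 13 lower, and 3962 to 4389 and 3829 to 4233 of all genes. DESeq2 gave 11 and 13 members, RLE scaling 10 and 12, upper-quartile scaling 10 and 13, no filter on low counts 13 and 13, and a mean of at least 50 counts 10 and 9, which left FBXL13, FBXO15 and FBXO24 untested. With neither MANIO library 4 nor DMSO library 1, chosen after seeing the data, 12 were higher and 14 lower. With the replicate number as a block 12 were higher and 13 lower. The labels do not say that a number pairs cultures, the correlations of same-numbered libraries' deviations were 0.0385 to 0.163, and libraries did not all correlate best with their own number. No pair passed with a prior count of 0.5 or 5, and 3 libraries against 4 could not pass. A prior count cannot lower the exact permutation p of the 3 pairs already at its smallest value, so this alternative says little. The difference between FBXO17 and FBXO27 became -0.03 without MANIO library 1 and -0.02 without DMSO library 3. Genes below about 1 CPM, such as FBXO15, FBXL13 and FBXO24, rest on few counts, which limits their precision.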
